A study of Daphnia magna with 15 samples.

Results

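Globins are haem-carrying proteins that bind oxygen, and their genes in the water flea *Daphnia magna* are described here across 5 diets at 15 °C. The genes were chosen by name: of the 26646 genes in the files, 8 have a product name that contains globin, with 4 named Hemoglobin, 3 named Neuroglobin and 1 named Cytoglobin-2. RNA came from pools of whole mothers carrying their first clutch of parthenogenetic eggs, with 3 pools for each diet. All animals belonged to a single clone, P132.85, were kept at 15 °C and received their diet from the first hours of life to the time of sampling. CRY animals were fed *Cryptomonas*, which contains eicosapentaenoic acid (EPA) by nature. CY + EPA and CY animals were fed the cyanobacterium *Synechococcus elongatus* with and without EPA in liposomes, and according to the methods both also received alpha linoleic acid and cholesterol. GA + EPA and GA animals were fed the green alga *Acutodesmus obliquus* with and without EPA in liposomes. The labels do not mention empty liposomes for the GA pools. According to the methods, the green alga pools sequenced without EPA were those given empty liposomes as a control. The sample labels give pools of 3 animals and the protocol gives 5. Each comparison of a CY diet with a GA diet or with CRY therefore includes the added lipids, and a single clone shows nothing of how other genotypes respond.

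Daphnia haemoglobin is a large protein of many subunits, each with a pair of haem-binding domains, that is dissolved in the haemolymph and is made by fat cells and epithelia. The haemoglobin genes of *D. magna* lie side by side in a cluster. They are known for their rise under low oxygen, which acts through the hypoxia-inducible factor HIF and turns the animals red, and for their response to juvenile hormone analogues. Neuroglobin and cytoglobin are names taken from vertebrates, where these globins stay inside cells, neuroglobin mainly in neurons and cytoglobin in fibroblast-like cells. What the *Daphnia* genes with these names do is less well known.

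The files give RSEM's estimate of read pairs per gene, and these expected counts summed to between 18062681 and 22287959 per library, with a median of 19749270. Levels are given as CPM, counts scaled to the library total with TMM factors, which compare libraries but not genes, and as FPKM, which also divides by transcript length. The library labelled CY replicate 1 stood apart from its group. Over the log2 levels of all retained genes it correlated at 0.984 to 0.992 with the 3 CRY libraries, against 0.964 to 0.975 with the other CY libraries. Among 659 genes outside the family that separated CRY from CY replicates 2 and 3 by at least 2-fold, it was nearer to the CRY mean for 565 genes (85.7%), against 7.89 to 45.8% of these genes in the CY + EPA libraries, 23.5 to 32.9% in GA + EPA and 45.1 to 56.0% in GA. It was kept under its label, and the tests that involve CY are also given without it. A further 4 libraries correlated most highly with a library of another diet. These were CY + EPA replicate 2 and CY replicate 3 with each other (0.990), GA + EPA replicate 1 with CY replicate 3 (0.983) and GA + EPA replicate 3 with GA replicate 3 (0.993). No pair of libraries was as similar as counting noise alone would make it.

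All 8 globin genes were detected in every library, and each was retained in each comparison. A haemoglobin gene, KZS12426.1 (scaffold LRGB01001361.1, 1123752 to 1125240, minus strand, in the authors' annotation of the *D. magna* reference v2.4), was by far the most abundant of them. Per length it averaged 515 ± 29.7 FPKM in CY + EPA and 113 ± 40.6 FPKM in GA (SD, n = 3 each), against a mean over all libraries of 62.4 FPKM for KZS13302.1 and 57.4 FPKM for Cytoglobin-2. It made up 87.3 to 96.6% of the summed CPM of the 8 genes in a library. A second haemoglobin gene, KZS12427.1 (1133139 to 1136938, minus strand), lies on the same scaffold. The other genes named Hemoglobin are KZS13302.1 (LRGB01001237.1, 18 to 630, minus strand) at the very end of a scaffold and KZS17562.1 (LRGB01000626.1, 637643 to 639198, plus strand). Cytoglobin-2 is KZS07601.1 (LRGB01002451.1, 544162 to 544863, plus strand). The Neuroglobin genes are KZS21721.1 (LRGB01000024.1, 3022255 to 3023169, minus strand), KZS17126.1 (LRGB01000642.1, 145884 to 152272, minus strand) and KZS06152.1 (LRGB01002849.1, 850174 to 857908, minus strand). For 7 of the 8 genes the arthropod orthologue groups (artNOG) in the annotation also say globin. The exception is KZS06152.1, which artNOG describes as the optic atrophy protein OPA3, so that its name is uncertain.

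Reads of near-identical haemoglobin genes can be split among them. Expected counts were fractional in 15 of 15 libraries for KZS12426.1 and KZS12427.1 and in 14 of 15 for KZS13302.1, and whole in all libraries for the other 5 genes. For 6 of the 8 genes the transcript length behind the FPKM is longer than the annotated span of the gene. The gap is widest for KZS12426.1, with 6025 against 1489 bases, so levels per length rest on these lengths. In pools of whole animals, fewer cells that make a globin and less of its RNA per cell cannot be told apart.

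The abundant haemoglobin gene KZS12426.1 was high on the cyanobacterium, intermediate on *Cryptomonas* and low on the green alga. Its levels were 1624, 1767 and 2249.6 CPM in CRY, 3317, 3145 and 2939 CPM in CY + EPA, 1847, 2782 and 2522 CPM in CY, 997, 1285 and 969 CPM in GA + EPA and 416, 579.8 and 859 CPM in GA. Every library of CRY, CY + EPA and CY lay above every GA + EPA library, and every GA + EPA library lay above every GA library. The CY and CRY ranges overlapped, and the library labelled CY replicate 1 was the lowest of the CY libraries. KZS13302.1, the short gene at the scaffold end, had the same order of diets, with 30.1, 21.6 and 31.0 CPM in CRY, 54.8, 54.3 and 48.7 CPM in CY + EPA, 26.5, 46.9 and 46.4 CPM in CY, 11.4, 19.2 and 13.3 CPM in GA + EPA and 7.04, 9.23 and 12.7 CPM in GA. Its GA + EPA and GA ranges overlapped, as did those of CY and CRY. Over the 15 libraries the log2 levels of both genes correlated at 0.98, which is a description of libraries that share depth, diet and possibly reads.

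The remaining haemoglobin genes were rarer and followed other orders. KZS12427.1, the neighbour of KZS12426.1 on the scaffold, had 9.72, 12.3 and 18.7 CPM in CRY, 14.3, 22.8 and 17.2 CPM in CY + EPA, 10.3, 9.69 and 6.53 CPM in CY, 3.48, 6.88 and 4.21 CPM in GA + EPA and 15.4, 6.85 and 9.51 CPM in GA. Its highest mean was again in CY + EPA, but its lowest was in GA + EPA, and GA replicate 1 (15.4 CPM) lay above the lowest CY + EPA library. KZS17562.1 had 1.75, 0.997 and 1.25 CPM in CRY, 2.71, 3.59 and 3.10 CPM in CY + EPA, 2.56, 1.79 and 1.93 CPM in CY, 2.21, 1.64 and 1.47 CPM in GA + EPA and 2.14, 1.56 and 1.36 CPM in GA. Every CY + EPA library of this gene lay above every library of the other diets, and its mean was lowest in CRY.

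Cytoglobin-2 was highest on *Cryptomonas*. It had 72.5, 58.3 and 70.2 CPM in CRY, 42.0, 51.9 and 40.2 CPM in CY + EPA, 67.0, 29.7 and 30.5 CPM in CY, 22.6, 21.7 and 22.8 CPM in GA + EPA and 25.2, 19.8 and 22.6 CPM in GA. The CRY libraries lay above all others except the library labelled CY replicate 1, and the GA + EPA and GA libraries lay below all others and overlapped each other. Without that library, the CY range was below the CY + EPA range. The Neuroglobin genes were all below 5 CPM. KZS21721.1 had 2.46, 2.31 and 1.82 CPM in CRY, 2.71, 1.86 and 2.38 CPM in CY + EPA, 1.74, 2.43 and 2.09 CPM in CY, 2.16, 2.90 and 4.36 CPM in GA + EPA and 4.86, 4.58 and 4.41 CPM in GA. All GA libraries lay above all libraries of the other diets, and 1 of the GA + EPA libraries lay within the CRY range and the other two above it. KZS17126.1 ranged from 2.62 to 3.22 CPM in GA + EPA and GA together, and from 1.36 to 2.95 CPM in CRY, CY + EPA and CY together, with CY replicate 2 the only library of these diets inside the GA range. KZS06152.1, with the uncertain name, averaged 2.43 ± 0.232 CPM in CRY, 2.12 ± 0.518 CPM in CY + EPA, 3.22 ± 0.266 CPM in CY, 2.30 ± 0.247 CPM in GA + EPA and 2.71 ± 0.185 CPM in GA (SD, n = 3 each).

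**Figure D1:**
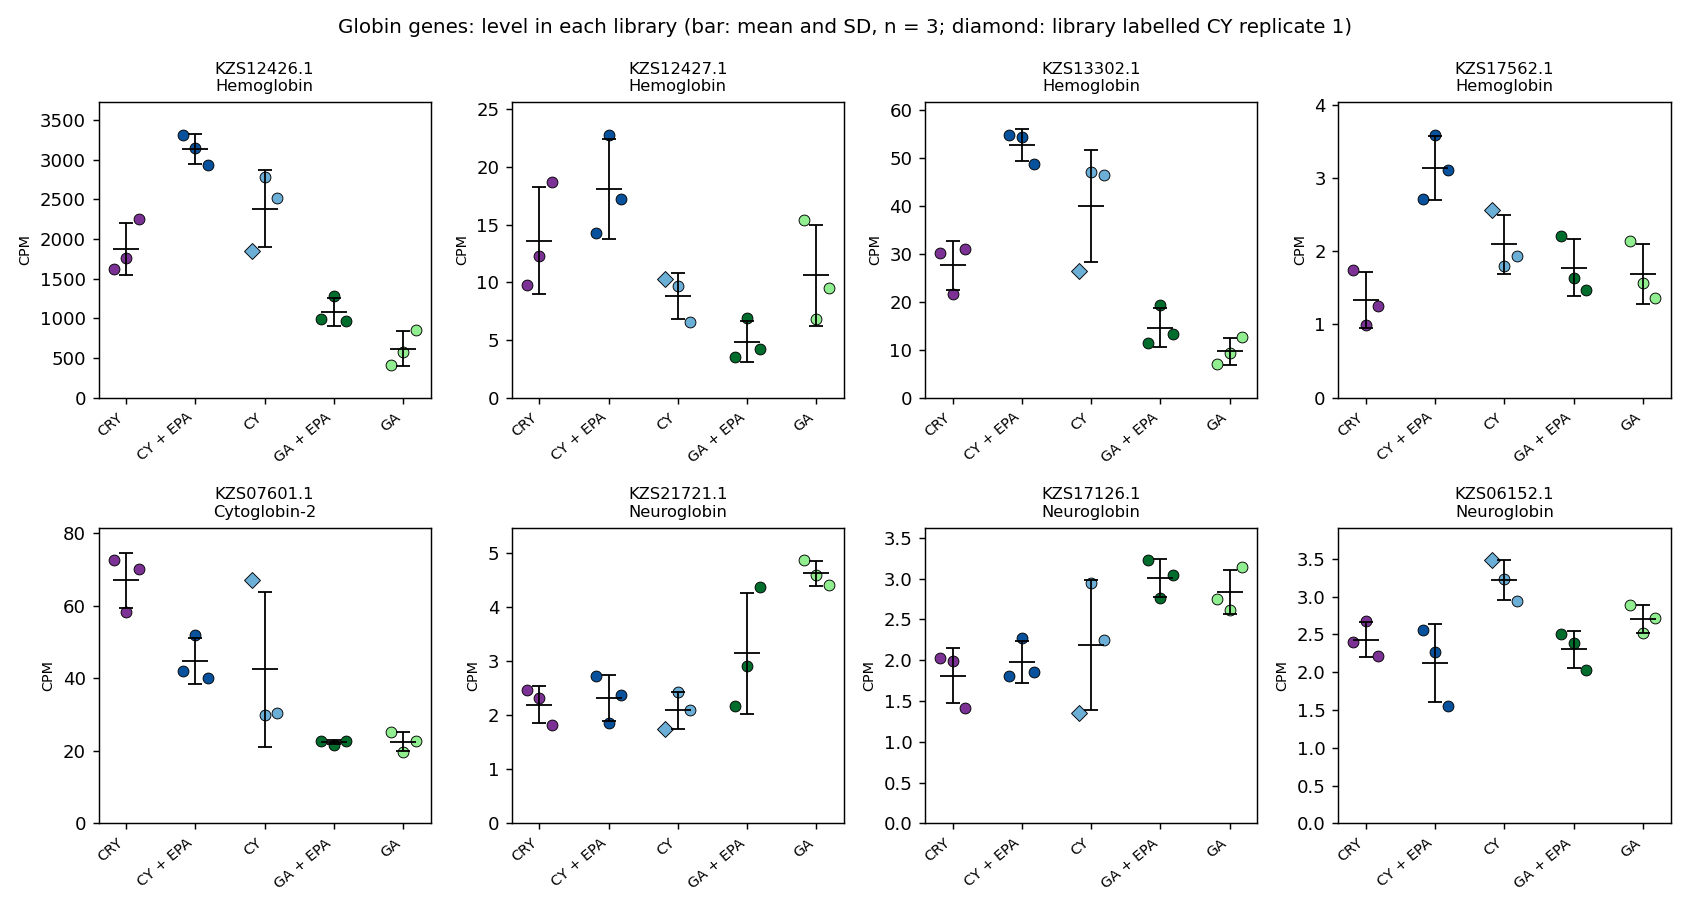
Level of each of the 8 globin genes in CPM (y axis, linear from 0) in the 15 libraries, by diet (x axis). Points are libraries, with the library labelled CY replicate 1 as a diamond, and bars give the mean and SD of 3 libraries. KZS12426.1 and KZS13302.1 are lowest in GA and highest in CY + EPA, Cytoglobin-2 is highest in CRY, and KZS21721.1 is highest in GA.

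The first question was whether the globin genes differ between the basal foods. Against GA, CRY animals had higher KZS12426.1 (1880.2 ± 328 against 618 ± 224 CPM, SD, n = 3 each), KZS13302.1 (27.6 ± 5.17 against 9.66 ± 2.86 CPM) and Cytoglobin-2 (67.0 ± 7.59 against 22.5 ± 2.71 CPM), and lower KZS21721.1 (2.19 ± 0.336 against 4.61 ± 0.225 CPM). A gene is called here where edgeR's adjusted p is 0.01 or less. These 4 of the 8 genes were called, 3 of them higher in CRY, where 16.2% of all 14303 tested genes were called, 6.62% higher and 9.59% lower. With limma on log2(FPKM + 0.1) the calls over all genes were 476 higher and 2183 lower, against 947 and 1372 with edgeR, and the same number of globin genes was called in each direction. The log2 fold changes were 1.61 ± 0.24 (SE) for KZS12426.1 (edgeR adjusted p = 0.0018) and 1.51 ± 0.22 for KZS13302.1 (edgeR adjusted p = 0.0015). Cytoglobin-2 changed by 1.57 ± 0.11 (edgeR adjusted p = 3.7e-05), a 2.97-fold difference, and KZS21721.1 by -1.07 ± 0.18 (edgeR adjusted p = 0.0028). Of the other genes, KZS17126.1 had -0.64 ± 0.21 and groups that did not overlap (edgeR adjusted p = 0.052), KZS12427.1 had 0.35 ± 0.32, KZS17562.1 had -0.34 ± 0.30 and KZS06152.1 had -0.15 ± 0.18 (edgeR adjusted p from 0.43 to 0.57 for these 3). The median over the 8 genes was a log2 fold change of 0.10, against -0.0039 over all tested genes, and it ranged from -0.040 to 0.31 with each library left out. With limma on log2(FPKM + 0.1) it was -0.038, against -0.17 over all genes. Without GA replicate 2, 2 of the 8 genes were called, not including KZS12426.1, where 1450 of 14613 genes were called.

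In CY animals, KZS12426.1 and KZS13302.1 were again higher than in GA and KZS21721.1 was again lower. KZS12426.1 averaged 2384 ± 483 CPM in CY against 618 ± 224 CPM in GA, a 3.78-fold difference (log2 1.92 ± 0.28, edgeR adjusted p = 0.0061). KZS13302.1 averaged 39.9 ± 11.7 against 9.66 ± 2.86 CPM (log2 2.02 ± 0.29, edgeR adjusted p = 0.0054), and KZS21721.1 2.09 ± 0.343 against 4.61 ± 0.225 CPM (log2 -1.17 ± 0.18, edgeR adjusted p = 0.0069). In all, 3 of the 8 genes were called, where 5.99% of 14264 genes were called, 1.27% higher and 4.72% lower (181 and 673 genes, against 109 and 982 with limma on log2(FPKM + 0.1)). Cytoglobin-2 had 0.88 ± 0.32 with all libraries (edgeR adjusted p = 0.12), and all CY libraries lay above all GA libraries. Without the library labelled CY replicate 1 it had 0.40 ± 0.11 (edgeR adjusted p = 0.047). The alternatives to the all-library fit (edgeR, DESeq2 and limma), most of which keep that library, gave adjusted p from 0.027 to 0.32. KZS12427.1, KZS17562.1, KZS17126.1 and KZS06152.1 had -0.29 ± 0.32, 0.28 ± 0.26, -0.41 ± 0.28 and 0.22 ± 0.16 with all libraries, and -0.40 ± 0.36, 0.13 ± 0.27, -0.14 ± 0.22 and 0.18 ± 0.19 without that library. The median over the 8 genes was 0.25, against -0.0016 over all genes, and it ranged from 0.15 to 0.42 with each library left out. With limma on log2(FPKM + 0.1) it was 0.090, against -0.18 over all genes. Without the library labelled CY replicate 1, KZS12426.1 and KZS13302.1 were called, with 2.09 ± 0.27 and 2.26 ± 0.21, where 8.73% of 14561 genes were. In that fit KZS21721.1 had -1.04 ± 0.18 with an edgeR adjusted p of 0.010. The same alternatives to the all-library fit gave KZS21721.1 adjusted p from 0.00010 to 0.043. Leaving out any GA library or CY replicate 3 left none of the 8 genes called, and leaving out CY replicate 2 left 1. In the fits without a GA library, 114 to 145 of all genes were called, against 417 without CY replicate 3 and 1016 without CY replicate 2.

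Among animals with EPA in the food, the 4 Hemoglobin genes and Cytoglobin-2 had higher means in CY + EPA than in GA + EPA. KZS12426.1 averaged 3134 ± 189 CPM in CY + EPA against 1084 ± 175 CPM in GA + EPA (log2 1.53 ± 0.14, edgeR adjusted p = 0.012), and KZS13302.1 52.6 ± 3.35 against 14.6 ± 4.10 CPM (log2 1.84 ± 0.20, edgeR adjusted p = 0.017). KZS12427.1 averaged 18.1 ± 4.33 against 4.86 ± 1.79 CPM (log2 1.89 ± 0.30, edgeR adjusted p = 0.041) and Cytoglobin-2 44.7 ± 6.29 against 22.3 ± 0.595 CPM (log2 0.99 ± 0.11, edgeR adjusted p = 0.018). KZS12427.1 had the opposite sign in CY against GA, where it was not called. All CY + EPA libraries lay above all GA + EPA libraries for these 4 genes and for KZS17562.1 (log2 0.82 ± 0.22, edgeR adjusted p = 0.12), and below them for KZS17126.1 (log2 -0.60 ± 0.17, edgeR adjusted p = 0.13). With 3 libraries a diet, groups can separate by chance, and the share of all genes that did so is not given here. edgeR called none of the 8 genes, where 0.147% of 14289 genes were called. With the threshold at 0.05 it called the first 4, where 1.53% of all genes were called, and 6 of the 8 had p-values up to 0.05 before adjustment, against 20.8% of all genes. DESeq2 called the same 4 at 0.01, where it called 3.56% of all genes. limma called none of the 8, where it called 18 of all genes on log2(FPKM + 0.1) and 23 on log2(FPKM + 1). KZS21721.1 had -0.45 ± 0.30 and KZS06152.1 -0.12 ± 0.23, both with overlapping groups.

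No globin gene was called between CRY and CY with all libraries. edgeR called 0 of the 8 genes, where 0% of 14164 genes were called, and 0 of the 8 had a p-value up to 0.05 before adjustment, against 15.6% of all genes. DESeq2 called none of the 8 either, where it called 161 of 14164 genes, and limma called no gene at all. The log2 fold changes ran from -0.64 ± 0.29 for KZS17562.1 to 0.67 ± 0.32 for Cytoglobin-2, with -0.33 ± 0.19 for KZS12426.1, -0.52 ± 0.25 for KZS13302.1, 0.63 ± 0.28 for KZS12427.1 and -0.39 ± 0.19, -0.25 ± 0.33 and 0.090 ± 0.23 for KZS06152.1, KZS17126.1 and KZS21721.1. The alternatives to the all-library fit (edgeR, DESeq2 and limma), most of which keep the library labelled CY replicate 1, gave adjusted p of 0.0090 to 0.72 for Cytoglobin-2. They gave 0.047 to 0.71 for KZS13302.1 and 0.11 to 0.73 for KZS12426.1. Without that library, Cytoglobin-2 was called as higher in CRY, with 1.17 ± 0.12 (edgeR adjusted p = 0.0090), where 0.691% of 14474 genes were called. In the same fit KZS13302.1 had -0.75 ± 0.17 and KZS12426.1 -0.48 ± 0.16, lower in all CRY libraries than in the remaining CY libraries (edgeR adjusted p = 0.047 and 0.11). The others had 0.75 ± 0.32 for KZS12427.1, -0.47 ± 0.33 for KZS17562.1, -0.025 ± 0.25 for KZS21721.1, -0.50 ± 0.28 for KZS17126.1 and -0.33 ± 0.21 for KZS06152.1.

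**Figure D2:**
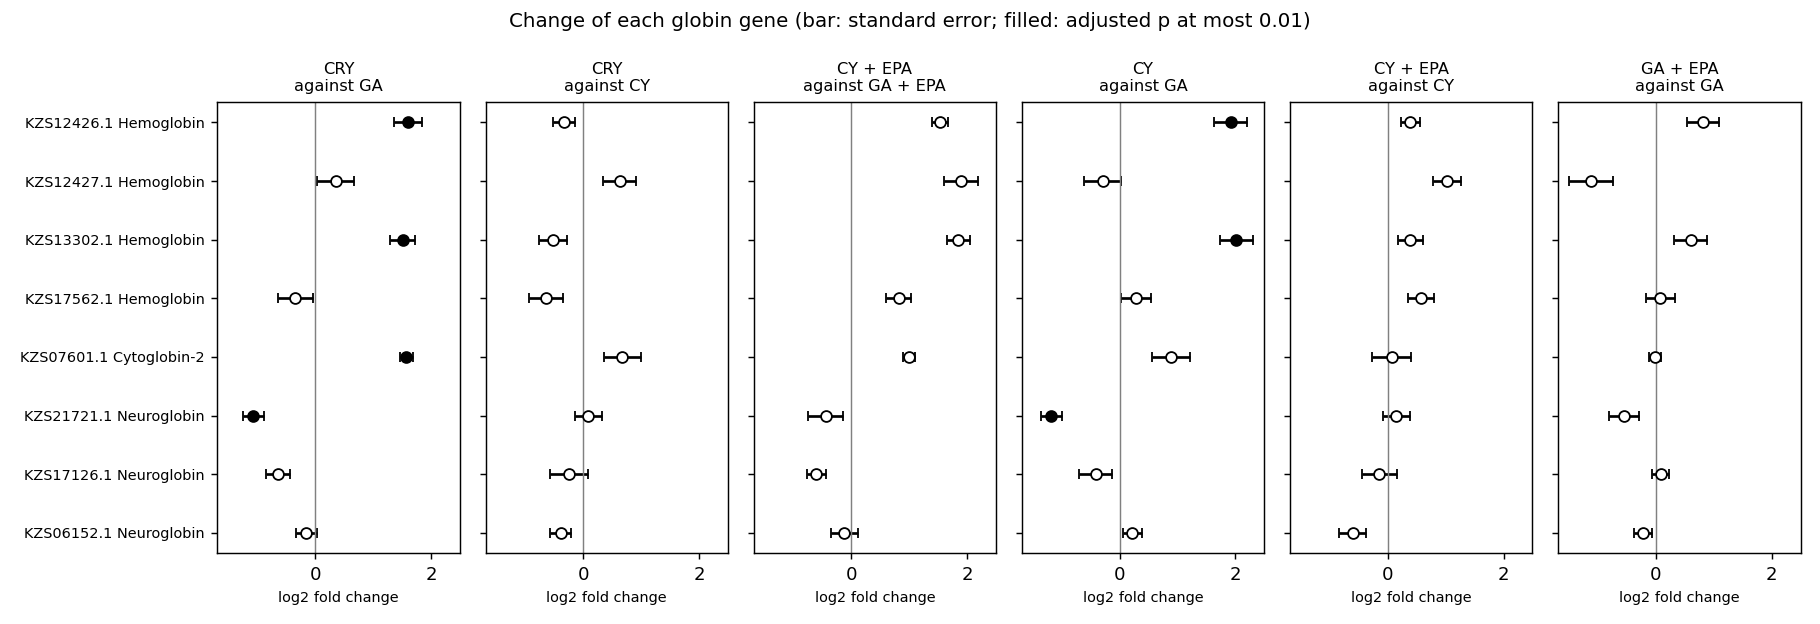
Log2 fold change (x axis, first diet over second) of each of the 8 globin genes (rows) in the 6 comparisons of diets, with all libraries. Bars are standard errors and filled points mark called genes: 4 genes in CRY against GA, 3 in CY against GA and none in the other comparisons.

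The second question was whether EPA changes globin levels on the same basal food. On the green alga, KZS12426.1 averaged 1084 ± 175 CPM in GA + EPA against 618 ± 224 CPM in GA and the groups did not overlap (log2 0.82 ± 0.27, edgeR adjusted p = 0.20). KZS12427.1 averaged 4.86 ± 1.79 against 10.6 ± 4.40 CPM, with groups that overlapped at their edge (log2 -1.12 ± 0.38, edgeR adjusted p = 0.20). KZS13302.1 had 0.60 ± 0.28, KZS21721.1 -0.55 ± 0.26 and KZS06152.1 -0.23 ± 0.16. Cytoglobin-2, KZS17562.1 and KZS17126.1 were the closest to 0, with -0.0085 ± 0.10, 0.075 ± 0.25 and 0.086 ± 0.15. edgeR called 0 of the 8 genes, where 0% of 14353 genes were called. DESeq2 also called none of the 8, where it called 360 of 14353 genes, and limma called no gene at all. Before adjustment, the p-values of KZS12426.1 and KZS12427.1 were up to 0.05, as were those of 18.4% of all genes.

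On the cyanobacterium, the haemoglobin genes all had higher means with EPA, but none passed the test. KZS12427.1 averaged 18.1 ± 4.33 CPM in CY + EPA against 8.82 ± 2.01 CPM in CY, without overlap (log2 1.03 ± 0.24, edgeR adjusted p = 1.0). KZS17562.1 had 0.58 ± 0.22, KZS13302.1 0.39 ± 0.22 and KZS12426.1 0.39 ± 0.17, each without overlap between the groups. The share of all genes without overlap is not given for this comparison either. The Neuroglobin genes had -0.60 ± 0.23 for KZS06152.1, -0.14 ± 0.31 for KZS17126.1 and 0.15 ± 0.23 for KZS21721.1, and Cytoglobin-2 had 0.067 ± 0.33. Without the library labelled CY replicate 1 the last value was 0.58 ± 0.13, and KZS12427.1 had 1.16 ± 0.27, KZS17562.1 0.76 ± 0.23, KZS13302.1 0.18 ± 0.088 and KZS12426.1 0.25 ± 0.12. The Neuroglobin genes then had -0.53 ± 0.27 for KZS06152.1, -0.38 ± 0.24 for KZS17126.1 and 0.040 ± 0.25 for KZS21721.1. edgeR called 0 of the 8 genes with all libraries and 0 without that one, and 0% of 14162 genes were called with all libraries. DESeq2 called none of the 8, where it called 4 of 14162 genes, and limma called no gene at all. Before adjustment, 3 of the 8 genes (KZS12427.1, KZS17562.1 and KZS06152.1) had p-values up to 0.05, against 1.93% of all genes.

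The difference between both EPA effects was tested in one fit of 12 libraries. Among the 8 genes, KZS12427.1 had the largest difference. Its mean was lower with EPA on the green alga and higher with EPA on the cyanobacterium, with neither change called. The effect on GA minus the effect on CY was -2.18 ± 0.48 on the log2 scale (edgeR unadjusted p = 0.0010, adjusted p = 0.29), and -2.29 ± 0.53 without the library labelled CY replicate 1. edgeR called 0 of the 8 genes, where 0% of 14816 genes were called, and among the 8 only KZS12427.1 had a p-value up to 0.05 before adjustment, against 10.8% of all genes. DESeq2 called this gene, where it called 0.297% of all genes, and limma called none. GA replicate 1 carried the highest value of this gene on the green alga (15.4 CPM). The other differences ran from -0.72 ± 0.36 for KZS21721.1 to 0.40 ± 0.34 for KZS12426.1 with all libraries, and from -0.70 ± 0.33 for KZS17562.1 to 0.55 ± 0.34 for KZS12426.1 without the library labelled CY replicate 1. Over all 5 diets together, edgeR called 3 of the 8 genes, KZS12426.1 (adjusted p = 0.00028), KZS13302.1 (0.00032) and Cytoglobin-2 (0.0027), where 8.12% of 14981 genes were called. KZS21721.1 (0.013), KZS12427.1 (0.016) and KZS17562.1 (0.024) lay between 0.01 and 0.05. edgeR also called 3 of the 8 without the library labelled CY replicate 1, KZS12426.1 (adjusted p = 0.00018), KZS13302.1 (9.6e-05) and Cytoglobin-2 (1.3e-05), where 12.4% of all genes were called.

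The summed level of the 8 genes, a description that KZS12426.1 dominates, was 1745, 1867 and 2376 CPM in CRY, 3438, 3284 and 3054 CPM in CY + EPA, 1960.0, 2879 and 2615 CPM in CY, 1044, 1343 and 1020.1 CPM in GA + EPA and 476, 627 and 915 CPM in GA. The GA libraries lay below all GA + EPA libraries, and these below all libraries of the other diets. As a share of all expected counts, the mean was 0.193% in CRY, 0.313% in CY + EPA, 0.236% in CY, 0.121% in GA + EPA and 0.0722% in GA. Relative to GA, the mean sum was 2.97-fold in CRY, 4.84-fold in CY + EPA, 3.69-fold in CY and 1.69-fold in GA + EPA. In summed FPKM these ratios were 2.55, 3.79, 2.90 and 1.50. The CY sum was 4.08-fold that of GA in CPM and 3.18-fold in FPKM without the library labelled CY replicate 1.

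The names do not cover all globins of the annotation. A further 8 genes carry the artNOG description Globin under other product names, 7 as uncharacterized proteins and 1, KZS09212.1, as a mitochondrial transcription termination factor. They were picked after the annotation was read and are described beside the 8 named genes. On scaffold LRGB01001361.1, KZS12425.1, KZS12428.1 and KZS12429.1 flank both haemoglobin genes, so that 5 globin genes of the minus strand lie within 22528 bases (1120951 to 1143478). KZS12428.1 and KZS12429.1 were far more abundant than any gene named Hemoglobin. They made up 27.3 to 41.4% and 44.5 to 58.9% of the summed CPM of all 16 genes in a library, against 6.0 to 17.0% for KZS12426.1. Per length, KZS12429.1 averaged 3742 ± 176 FPKM in CRY and 1674 ± 117 FPKM in GA, with a transcript length of 2650 bases against a span of 1541. The sum of the 5 clustered genes was 16522 ± 1362 CPM in CRY, 19623 ± 1538 CPM in CY + EPA, 16491 ± 703 CPM in CY, 8319 ± 238 CPM in GA + EPA and 7254 ± 385 CPM in GA (SD, n = 3 each), and 16089.7 ± 149.9 CPM in CY without the library labelled CY replicate 1 (n = 2).

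**Figure D3:**
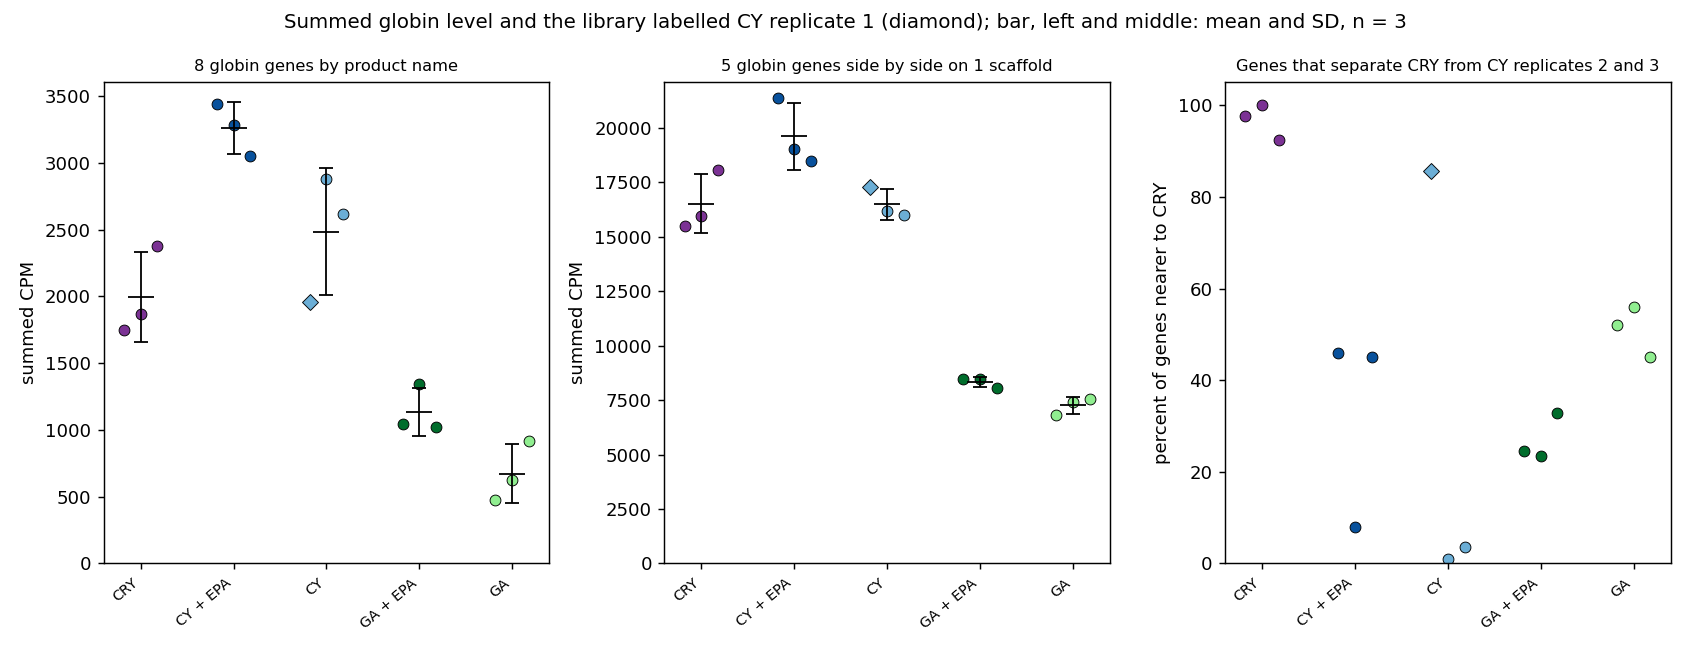
Left and middle, summed CPM (y axis, from 0) of the 8 named globin genes and of the 5 clustered globin genes in each library by diet (x axis), with the mean and SD of 3 libraries. Right, percent of 659 genes outside the family for which a library lies nearer to the CRY mean than to the mean of CY replicates 2 and 3: the library labelled CY replicate 1 (diamond) is at 85.7%, above all CY + EPA, GA + EPA and GA libraries (7.89 to 56.0%). The CRY libraries and CY replicates 2 and 3 were used to choose the genes.

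In the cluster, KZS12428.1 had 4711, 4498 and 5875 CPM in CRY, 7341, 7163 and 6751 CPM in CY + EPA, 5309, 6111 and 5575 CPM in CY, 2484, 2698 and 2751 CPM in GA + EPA and 2871, 2715 and 2747 CPM in GA. All CRY, CY + EPA and CY libraries lay above all GA + EPA and GA libraries, which overlapped. Its log2 fold change was 0.86 ± 0.098 in CRY against GA, 1.00 ± 0.094 in CY against GA and 1.42 ± 0.11 in CY + EPA against GA + EPA (edgeR adjusted p = 0.00044, 0.0014 and 0.0070). KZS12429.1 had its highest means in CRY and CY + EPA (9596 and 9377 CPM, against 8430 CPM in CY). The ranges of these diets overlapped, and the library labelled CY replicate 1 (10123 CPM) lay above all CRY libraries. KZS12429.1 had 1.32 ± 0.072 in CRY against GA and 1.10 ± 0.15 in CY against GA (edgeR adjusted p = 1.2e-05 and 0.0046). In CY + EPA against GA + EPA it had 1.03 ± 0.13 (edgeR adjusted p = 0.025). In CY against GA without the library labelled CY replicate 1, the values were 1.06 ± 0.094 for KZS12428.1 and 0.97 ± 0.10 for KZS12429.1 (edgeR adjusted p = 0.0010 and 0.0017). The alternatives to the all-library fit (edgeR, DESeq2 and limma), most of which keep that library, gave adjusted p of 3.3e-22 to 0.017 and 8.4e-11 to 0.033. KZS12425.1 was rare, at most 10.7 CPM, and was called in CRY against GA (1.64 ± 0.35, edgeR adjusted p = 0.0094). KZS13303.1, beside KZS13302.1 on its scaffold, averaged 26.2 ± 7.87 CPM in CRY, 45.1 ± 4.87 CPM in CY + EPA, 30.4 ± 7.08 CPM in CY, 14.5 ± 3.03 CPM in GA + EPA and 15.4 ± 4.16 CPM in GA. It was not called in CRY against GA, CY against GA or CY + EPA against GA + EPA, with 0.76 ± 0.25, 0.94 ± 0.24 and 1.64 ± 0.18 (edgeR adjusted p = 0.049, 0.041 and 0.017), and 1.11 ± 0.23 in CY against GA without the library labelled CY replicate 1.

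The largest log2 fold changes between diets among the 16 globin genes were in a pair of neighbouring genes on the scaffold of Cytoglobin-2, KZS07513.1 (234211 to 235241, plus strand) and KZS07514.1 (236030 to 236884, minus strand). KZS07513.1 had 197, 158 and 214 CPM in CRY, 11.1, 17.7 and 12.4 CPM in CY + EPA, 215, 6.41 and 7.98 CPM in CY, 6.54, 4.96 and 7.45 CPM in GA + EPA and 2.89, 3.42 and 3.56 CPM in GA. KZS07514.1 had 138, 112 and 156 CPM in CRY, 7.55, 8.22 and 8.11 CPM in CY + EPA, 132, 3.18 and 5.31 CPM in CY, 3.17, 1.92 and 1.93 CPM in GA + EPA and 1.31, 0.604 and 0.763 CPM in GA. Both were high in the CRY libraries and in the library labelled CY replicate 1, and at most 17.7 CPM in all others. In CRY they were 57.7-fold and 149-fold higher than in GA (log2 5.85 ± 0.15 and 7.22 ± 0.23, edgeR adjusted p = 1.1e-06 and 1.1e-06). Against CY they had 1.32 ± 1.23 and 1.54 ± 1.24 with all libraries, and 4.73 ± 0.20 and 5.00 ± 0.28 without that library (edgeR adjusted p = 0.0023 and 0.0037). The alternatives to the all-library fit (edgeR, DESeq2 and limma), most of which keep that library, gave adjusted p of 0.0023 to 0.85 and 0.0037 to 0.82. In CY against GA they had 4.52 ± 1.45 and 5.67 ± 1.63 with it and 1.12 ± 0.18 and 2.22 ± 0.37 without it. In CY + EPA against CY the sign depended on it, with -2.49 ± 1.33 and -2.56 ± 1.34 with it and 0.94 ± 0.25 and 0.91 ± 0.24 without it. In CY + EPA against GA + EPA, which does not use it, they had 1.11 ± 0.23 and 1.76 ± 0.22 (edgeR adjusted p = 0.073 and 0.024). KZS21216.1 was called in CRY against GA (0.84 ± 0.070, edgeR adjusted p = 8.7e-05), while KZS09212.1 stayed within 19.8 and 23.6 CPM in all libraries. In CRY against GA 6 of these 8 further genes were called, where 16.2% of all genes were. In CY against GA 2 were called, where 5.99% of all genes were, and 4 without the library labelled CY replicate 1, where 8.73% were. In CY + EPA against GA + EPA 1 was called, where 0.147% were.

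**Figure D4:**
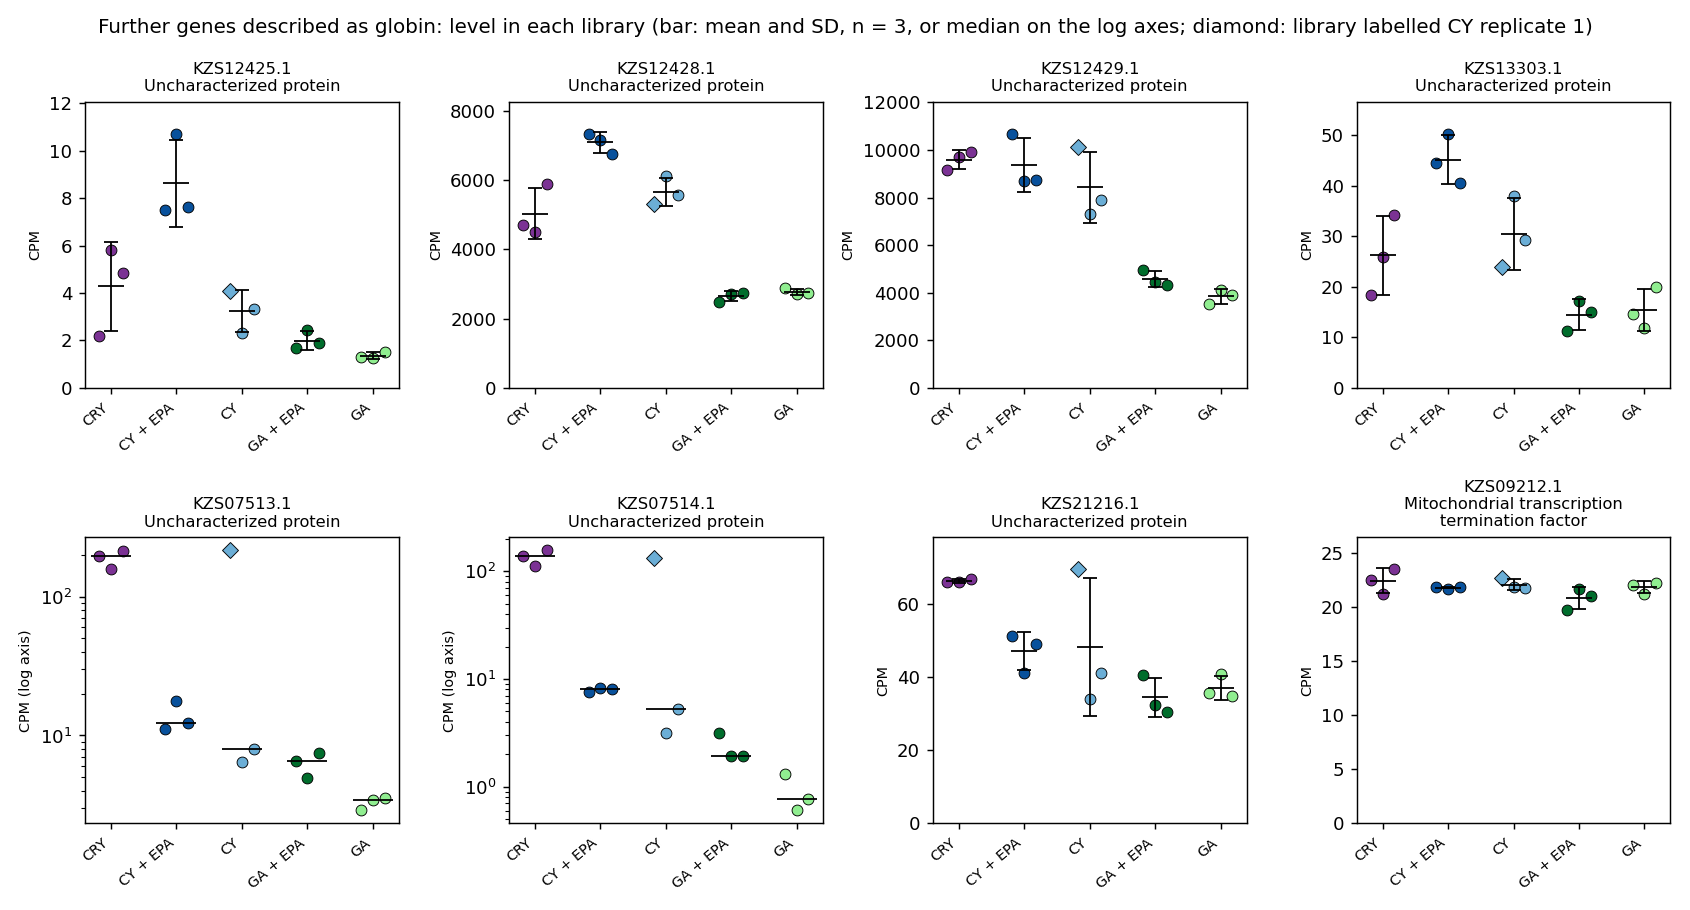
Level in CPM (y axis) of the 8 further genes that artNOG describes as globin, in the 15 libraries by diet (x axis). Points are libraries, with the library labelled CY replicate 1 as a diamond. Bars give the mean and SD of 3 libraries, or the median on the log axes of KZS07513.1 and KZS07514.1, which are high in CRY and in that library.

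Genes that make haem, the oxygen-binding group of globins, had no call in the direction of the haemoglobin genes. Of 10 genes of haem synthesis 8 were tested, and in CRY against GA 3 were called, all lower in CRY, where 9.59% of all genes were called lower. These were 5-aminolevulinate synthase, the first enzyme of the pathway (335 ± 44.0 against 511 ± 16.4 CPM, log2 -0.61 ± 0.094, edgeR adjusted p = 0.0020), Delta-aminolevulinic acid dehydratase, which forms porphobilinogen (-0.51 ± 0.080), and Porphobilinogen deaminase, the next enzyme (-0.65 ± 0.092). None of the 8 was called in the other pairs of diets, with or without the library labelled CY replicate 1. Of 4 genes of haem breakdown, transport and binding and of 6 genes of hypoxia signalling, none was called in a pair of diets, with or without that library. The hypoxia list was matched by name and includes KZS13930.1, named Single-minded 1-A (8.62 CPM in CRY and 8.90 CPM in GA). Whether this gene takes part in hypoxia signalling was not tested. Over all 5 diets 1 of the 6 hypoxia genes was called, where 8.12% of all genes were (12.4% without that library). This was KZS03618.1, named Aryl hydrocarbon receptor nuclear translocator protein 1, a partner of HIF (edgeR adjusted p = 0.0082 with and without that library). It averaged 11.8 CPM in CRY and 16.0 CPM in GA, and another translocator gene, KZS08271.1, 87.2 and 76.1 CPM. In the same test 3 of the 8 haem synthesis genes were called with and without that library. Of the 4 genes of haem breakdown, transport and binding, 0 were called with it and 1 without it. The 6 hypoxia genes summed to 269 to 302 CPM in CRY, 244 to 339.7 CPM in CY and 263 to 273 CPM in GA. Of 18 tested genes of iron handling, 1 was called higher and 5 lower in CRY against GA, and 1 higher and 2 lower in CY against GA (1 and 3 without the library labelled CY replicate 1). Of all genes 6.62% were called higher and 9.59% lower in CRY against GA, and 1.27% and 4.72% in CY against GA (3.16% and 5.57% without that library). Among the iron genes a ferritin, KZS07197.1, which stores iron, was lower in both, with 1576 ± 179 CPM in CRY and 1432 ± 88.7 CPM in CY against 2396 ± 98.9 CPM in GA (log2 -0.60 ± 0.084 and -0.77 ± 0.089, edgeR adjusted p = 0.0012 and 0.0028). Ferric-chelate reductase KZS13179.1 was also lower in both (-2.26 ± 0.099 and -2.80 ± 0.43), and Mitoferrin-1, which carries iron into mitochondria, was higher in CY against GA (0.58 ± 0.091). These 3 genes had -0.75 ± 0.10, -3.39 ± 0.29 and 0.64 ± 0.096 in CY against GA without the library labelled CY replicate 1, and all were called. Other ferritin genes differed in direction between CRY and GA. Means were higher in CRY for KZS12270.1 (495 against 446 CPM), KZS12271.1 (728 against 662 CPM), KZS12272.1 (69.5 against 46.2 CPM) and KZS10914.1 (61.0 against 59.9 CPM). They were lower in CRY for KZS07198.1 (44.6 against 55.9 CPM) and KZS17638.1 (362 against 486 CPM), and KZS07199.1 was barely detected.

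Yolk genes were also lowest in GA. All 13 vitellogenin genes were called higher in CRY against GA and in CY against GA, also without the library labelled CY replicate 1. Of all genes 6.62% and 1.27% were called higher, and 3.16% in CY against GA without that library. The summed level of the yolk genes was 78538 to 109872 CPM in CRY, 75814 to 95984 CPM in CY + EPA, 67569.8 to 147789 CPM in CY, 23687 to 45497 CPM in GA + EPA and 8495 to 14036 CPM in GA. As with KZS12426.1, the GA libraries lay below all GA + EPA libraries and these below all others. Within CY the order differed, since the library labelled CY replicate 1 had the highest yolk sum and the lowest KZS12426.1 of the CY libraries. The yolk genes were not called in CY + EPA against GA + EPA, where 0.147% of all genes were. Of 14 genes of juvenile hormone and ecdysteroid signalling 13 were tested, with 1 call in CRY against GA and 1 in CY against GA, both lower, where 9.59% and 4.72% of all genes were called lower. Without the library labelled CY replicate 1, CY against GA had 1 higher and 2 lower, where 3.16% and 5.57% of all genes were. Of 11 muscle genes, 6 were called lower in CRY against GA, where 9.59% of all genes were called lower, and their sum was 3740.4 to 4018 CPM in CRY and 4743 to 5451 CPM in GA. Of 30 tested trypsin and chymotrypsin genes, 9 were called higher and 3 lower in CRY against GA (median log2 0.22), although the sum of all 36 was lower, at 11697 to 13424 CPM in CRY and 13531 to 14653 CPM in GA. In CY against GA 2 were called higher and 2 lower (4 and 2 without the library labelled CY replicate 1), and in CY + EPA against GA + EPA 4 higher. The shares of all genes called higher and lower were 6.62% and 9.59% in CRY against GA and 1.27% and 4.72% in CY against GA. They were 3.16% and 5.57% in CY against GA without that library. In CY + EPA against GA + EPA 0.147% were called in both directions together. Of 56 tested cuticle and chitin genes, 5 were called higher and 5 lower in CRY against GA (median log2 0.14), although the sum of all 97 was lower, at 4357 to 4620.0 CPM in CRY and 5929.9 to 6380.1 CPM in GA. In CY against GA 0 were called higher and 5 lower with all libraries, and 11 higher and 6 lower without the library labelled CY replicate 1. The same shares of all genes apply, and the cuticle counts in CRY against GA were close to them. The part of these tissues in the globin values was not tested.

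The genes whose log2 levels were most like those of KZS12426.1, the named globin gene with the highest FPKM, were found among 14973 genes outside the 8. Over the 15 libraries, Pearson's r was 0.97 for KZS09114.1 (Alpha-1,2-mannosidase in the annotation), 0.96 for KZS09820.1 and 0.96 for KZS06943.1 (both uncharacterized), 0.96 for KZS16839.1 (a 26S proteasome subunit) and 0.95 for KZS05473.1 (a selenocysteine tRNA-associated protein). These are the highest of many values, and the libraries share diet, depth and stage. KZS06943.1 had the widest range of means, with 9.91 CPM in CRY, 24.0 CPM in CY + EPA, 18.8 CPM in CY, 4.03 CPM in GA + EPA and 1.82 CPM in GA. Within the family, KZS12426.1 correlated at 0.98 with KZS13302.1, 0.90 with KZS12428.1, 0.60 with Cytoglobin-2 and -0.79 with KZS21721.1.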

How the data were processed

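RNA-seq of whole *D. magna* pools at 15 °C was analysed in 15 libraries, 3 per diet, grouped by the sample labels. Per the labels and methods, reads were trimmed by the authors (Trimmomatic), mapped with Bowtie2 against version 2.4 of the *D. magna* reference and counted per gene by RSEM 1.2.31. They deposited an expected count per gene, which is not normalised. The FPKM values they deposited are scaled to length and library, and the deposited TPM values were not used. Whether counting used strand is not given in the sources used here.

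Rounded expected counts entered edgeR 4.0.16 (filterByExpr, TMM, glmQLFit and glmQLFTest) on the libraries of each comparison, with p-values adjusted over all tested genes after Benjamini and Hochberg and called at 0.01 or less. Replicates are separate pools, and p-values measure the spread between pools. The alternatives were RLE factors, DESeq2 1.42.0, other filters, all 15 libraries in one fit, a replicate block, other thresholds, limma 3.58.1 on log2(FPKM + 0.1) and log2(FPKM + 1), and each library left out. No other alternative was combined with leaving out a library. The fits were tested on simulated data.

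All 8 genes were to be named, as were called genes of the lists and the 5 genes most like the gene of highest FPKM. Only some of the called list genes are named above, and the rest are given as counts. Members, lists and tests were chosen with earlier results of these data known, and the 8 further globins after the annotation was read. Other lists are patterns in product names. For iron and yolk, names that did not belong were removed by name. No gene matched the RefSeq table by locus tag, and no sequence is shown.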

Additional observations from a re-analysis of the deposited data

How the results depend on the processing

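With each library left out in turn the count of called globin genes ranged from 0 to 2 in CY against GA (3 with all), from 2 to 4 in CRY against GA (4 with all), from 0 to 1 in CRY against CY (0 with all) and from 2 to 4 over all diets (3 with all), and was 0 in each of these fits of the other comparisons. The count over all genes also moved, from 114 to 1271 in CY against GA (854 with all) and from 1369 to 2488 in CRY against GA (2319 with all). It ranged from 0 to 100 in CRY against CY (0 with all) and from 514 to 1897 over all diets (1216 with all). In CY + EPA against GA + EPA the count of called globin genes was 0 with all libraries, 4 with DESeq2, 3 without the filter beyond a count above 0, 3 in the fit of all 15 libraries, 4 with the adjusted p allowed up to 0.05 and 5 with the p before adjustment up to 0.01, where 3.56%, 0.212%, 2.42%, 1.53% and 7.81% of all genes were called. Over all diets it was 6 with DESeq2 and 6 with either of these thresholds, where 24.1%, 24% and 22.4% of all genes were called, against 8.12%. With the p before adjustment up to 0.01 it was 1 in CY + EPA against CY (0.318% of all genes) and 1 for the difference of the EPA effects (2.91%), where DESeq2 also gave 1. A fit that leaves out a library has fewer samples, but its count over all genes did not always fall. In CY against GA 1271 genes were called without CY replicate 1 and 1016 without CY replicate 2, against 854 with all libraries. The cause of these changes was not tested. RLE factors, the minimum of 10 counts in every library and limma moved no count of called globin genes by more than 1.5 times, and summed levels moved by less than 1 SD. FPKM in place of scaled counts with a pseudocount of 0.1 shifted the median log2 fold change of all genes to -0.17 in CRY against GA and to -0.18 in CY against GA and in CY + EPA against GA + EPA, where 13 genes were called higher and 5 lower, against 18 and 3.

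Same-numbered libraries deviated together in some pairs of diets and not in others, with correlations from -0.35 to 0.65 over pairs. The highest were 0.65 for CY + EPA and GA + EPA replicate 3, 0.52 for CY + EPA and CY replicate 1 and 0.51 for CY and GA + EPA replicate 2. With the replicate number as a block, 2 globin genes were called in CY against GA, 4 in CRY against GA, 3 over all diets and 0 in the other comparisons, while the count over all genes fell to 173 in CY against GA, against 854 without the block, and to 0 in CY + EPA against GA + EPA, against 21. Over all genes it was 2165 in CRY against GA and 733 over all diets, against 2319 and 1216 without the block.

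Of 81 log2 fold changes compared with 1182 refits, those that changed sign were all of uncalled genes with a library left out. In GA + EPA against GA they ranged from -0.096 to 0.068 for Cytoglobin-2 and -0.10 to 0.28 for KZS17562.1. In CY + EPA against CY they ranged from -0.11 to 0.58 for Cytoglobin-2, -0.38 to 0.15 for KZS17126.1, -3.01 to 0.94 for KZS07513.1 and -3.09 to 0.91 for KZS07514.1. For the difference of the EPA effects they ranged from -0.60 to 0.098 for Cytoglobin-2, -0.070 to 0.45 for KZS17126.1 and -0.070 to 0.43 for KZS13302.1. They ranged from -0.53 to 0.11 for KZS12427.1 in CY against GA, -0.27 to 0.059 for KZS06152.1 in CY + EPA against GA + EPA, and -0.50 to 0.022 for KZS17126.1 and -0.025 to 0.21 for KZS21721.1 in CRY against CY. With 3 pools a diet, levels below 5 CPM, and shared reads of the haemoglobin cluster, small differences could not be detected.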
